A study of Homo sapiens with 8 samples.

Results

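The 10 genes described here are FOS, FOSB, FOSL1 and FOSL2 (the FOS family), JUN, JUNB and JUND (the JUN family), and ATF3, EGR1 and ZFP36. They were taken by symbol from 58302 Ensembl gene IDs in the deposited count tables, and all 10 had a row in every library. RNA was sequenced from Caco-2/15 cells, a human colon cancer line that takes on features of small intestinal absorptive cells once it is confluent. The 4 groups, of 2 libraries each, were postconfluent Z1flag, subconfluent Z1flag, postconfluent Z2flag and subconfluent Z2flag cells. Z1flag cells are heterozygous for H2AFZ-Flag, a Flag tag on the gene for the histone variant H2A.Z.1, and Z2flag cells are heterozygous for H2AFV-Flag, a Flag tag on the gene for the isoform H2A.Z.2. Both tags were introduced by CRISPR-Cas9 editing, so cells of every group carry a tagged allele, and untagged Caco-2/15 cells were not analysed here. Postconfluent cells (Pc) were harvested 7 days after confluence and subconfluent cells (Sc) before it. No source used here says whether each line is a single clone. The labels speak of duplicates, and the sample titles number them Exp1 and Exp2, here called replicate 1 and replicate 2. The titles and labels do not say that duplicates came from separate cultures, or that a number marks the same experiment in different groups. P-values therefore measure only the spread between these libraries.

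AP-1 is a family of transcription factor dimers. JUN proteins pair with each other or with FOS proteins and bind short DNA sites called TPA response elements, and ATF3 is a related basic leucine zipper protein that binds cyclic AMP response elements. FOS, FOSB, JUN, JUNB, ATF3 and EGR1 are classed as immediate early genes, since growth factors, serum or stress can induce their transcription within minutes without new protein synthesis. EGR1 is a zinc finger transcription factor. ZFP36 (tristetraprolin) is an RNA-binding protein that promotes decay of messenger RNAs with AU-rich elements, several immediate early transcripts among them. In intestinal epithelium, AP-1 is known chiefly for its part in proliferation, wound repair and colorectal cancer.

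Promoter sequences are shown for 7 of the genes, each with a match to a motif named below. The windows are from RefSeq (GRCh38.p14), run from 250 bases before to 50 after the annotated start, and were found for 9 of the 10 genes, with a pair of windows for ATF3. Motifs were searched on both strands and none of the matches overlapped another. The TATA box (TATAAA) was in the windows of FOS at -33 to -28, of FOSB at -30 to -25 and of JUNB at -31 to -26 from the start, and farther away in the second window of ATF3. It was in 11.5% of 35116 promoter windows of all genes. EGR1 held a pair of CArG boxes, the site of serum response factor, at -105 to -96 and -83 to -74, and 1.29% of all windows held this motif. JUN held a variant cyclic AMP response element (TGACATCA) at -67 to -60, as did 2.61% of all windows and the first window of ATF3. JUND held the consensus element (TGACGTCA) at -200 to -193, as did 1.85% of all windows. FOSL2 held a TPA response element (TGACTCA) at 4 to 10 bases after the start, as did 4.95% of all windows. The EGR site GCGNGGGCG was in the EGR1 window and in 9.43% of all windows. A match describes letters and is not evidence of a bound site. Elements that lie outside these windows were not searched. Capitals mark the TATA box, the CArG boxes, the cyclic AMP response elements and the TPA response element. The sequences, 5′ to 3′ on the strand of the gene, lie at chr14:75278578-75278877 (FOS), chr19:45467746-45468045 (FOSB), chr2:28392608-28392907 (FOSL2), chr1:58783998-58784297 (JUN, minus strand), chr19:12791236-12791535 (JUNB), chr19:18281573-18281872 (JUND, minus strand) and chr5:138465229-138465528 (EGR1).
FOS: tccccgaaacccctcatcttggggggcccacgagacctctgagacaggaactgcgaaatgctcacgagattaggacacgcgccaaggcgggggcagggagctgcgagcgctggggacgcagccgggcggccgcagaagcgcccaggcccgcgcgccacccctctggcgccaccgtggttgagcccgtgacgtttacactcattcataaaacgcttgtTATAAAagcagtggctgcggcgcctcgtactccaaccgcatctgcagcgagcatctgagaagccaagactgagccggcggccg
FOSB: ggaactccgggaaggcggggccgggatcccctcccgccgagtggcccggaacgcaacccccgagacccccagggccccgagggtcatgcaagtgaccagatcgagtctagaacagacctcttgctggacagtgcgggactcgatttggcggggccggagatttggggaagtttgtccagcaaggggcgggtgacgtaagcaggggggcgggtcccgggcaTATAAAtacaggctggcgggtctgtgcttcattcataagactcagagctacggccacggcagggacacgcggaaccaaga
FOSL2: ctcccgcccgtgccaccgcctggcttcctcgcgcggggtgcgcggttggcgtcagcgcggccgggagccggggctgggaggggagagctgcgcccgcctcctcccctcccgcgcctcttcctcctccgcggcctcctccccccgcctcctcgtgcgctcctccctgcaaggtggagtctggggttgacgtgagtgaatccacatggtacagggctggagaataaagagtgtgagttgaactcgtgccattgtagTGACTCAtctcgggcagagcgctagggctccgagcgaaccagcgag
JUN: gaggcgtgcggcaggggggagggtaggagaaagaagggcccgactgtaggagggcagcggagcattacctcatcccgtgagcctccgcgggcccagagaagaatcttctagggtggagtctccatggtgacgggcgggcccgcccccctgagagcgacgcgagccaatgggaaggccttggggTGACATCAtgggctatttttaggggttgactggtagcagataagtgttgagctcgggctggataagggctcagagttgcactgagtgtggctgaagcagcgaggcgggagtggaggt
JUNB: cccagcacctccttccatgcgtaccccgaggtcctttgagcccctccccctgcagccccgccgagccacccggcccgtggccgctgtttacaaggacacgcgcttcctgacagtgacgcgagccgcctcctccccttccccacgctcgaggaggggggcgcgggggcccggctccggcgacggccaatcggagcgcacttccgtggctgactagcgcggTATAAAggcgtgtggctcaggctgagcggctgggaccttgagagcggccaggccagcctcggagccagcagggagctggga
JUND: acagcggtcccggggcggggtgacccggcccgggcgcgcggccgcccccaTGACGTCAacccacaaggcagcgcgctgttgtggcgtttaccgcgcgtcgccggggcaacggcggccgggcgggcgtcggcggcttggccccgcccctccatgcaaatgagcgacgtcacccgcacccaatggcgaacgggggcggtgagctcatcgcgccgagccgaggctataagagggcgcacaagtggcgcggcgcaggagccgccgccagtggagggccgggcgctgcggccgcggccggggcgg
EGR1: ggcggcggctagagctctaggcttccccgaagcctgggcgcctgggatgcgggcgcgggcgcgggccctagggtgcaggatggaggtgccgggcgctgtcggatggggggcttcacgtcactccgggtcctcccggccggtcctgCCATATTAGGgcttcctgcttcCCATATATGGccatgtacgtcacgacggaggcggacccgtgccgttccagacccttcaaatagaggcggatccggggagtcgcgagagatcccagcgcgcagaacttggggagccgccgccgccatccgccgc

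Library totals ranged from 17063826 to 40881682 gene counts. The first principal component (71.7% of variance) separated postconfluent from subconfluent libraries. On the second (13.1%), Z1flag Pc replicate 1 lay at 73.9 and Z2flag Pc replicate 1 at -55.7. Reads that overlapped no feature made up 31.4% of reads in Z1flag Pc replicate 1 and 32.0% in Z1flag Sc replicate 1, against 20.6% to 24.5% in the other libraries. Levels below are CPM, counts scaled to library size with TMM factors. Changes are log2 fold changes, postconfluent over subconfluent, with their standard error, from an edgeR quasi-likelihood fit with Benjamini-Hochberg adjustment over 18240 genes, called at an adjusted p under 0.05.

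Averaged over both lines, 8 of the 10 genes were higher in postconfluent cells (FOS, FOSB, JUN, JUNB, JUND, ATF3, EGR1 and ZFP36), none was lower, and FOSL1 and FOSL2 did not pass. Of all genes tested, 27.8% were called higher and 27.5% lower. The median log2 change was 2.86 over the 10 genes and -0.01 over all genes tested. Within Z1flag cells 7 were higher and none lower, where 21.3% of all genes were called higher and 19.1% lower, and the medians were 2.18 and 0.04. Within Z2flag cells 8 were higher and none lower, where 18.3% of all genes were called higher and 19.3% lower, and the medians were 3.43 and -0.05. Upper-quartile scaling kept these 8, 7 and 8 genes, where 34.3%, 27.1% and 22.5% of all genes were called higher, but moved the median of all genes to 0.18 and the share of higher genes among all calls to 62.0%, against 50.3% with TMM. Within Z1flag cells that share became 67.1% against 52.7%, and within Z2flag cells 60.4% against 48.6%. In bulk samples, fewer cells expressing a gene and less RNA per cell cannot be told apart.

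**Figure D1:**
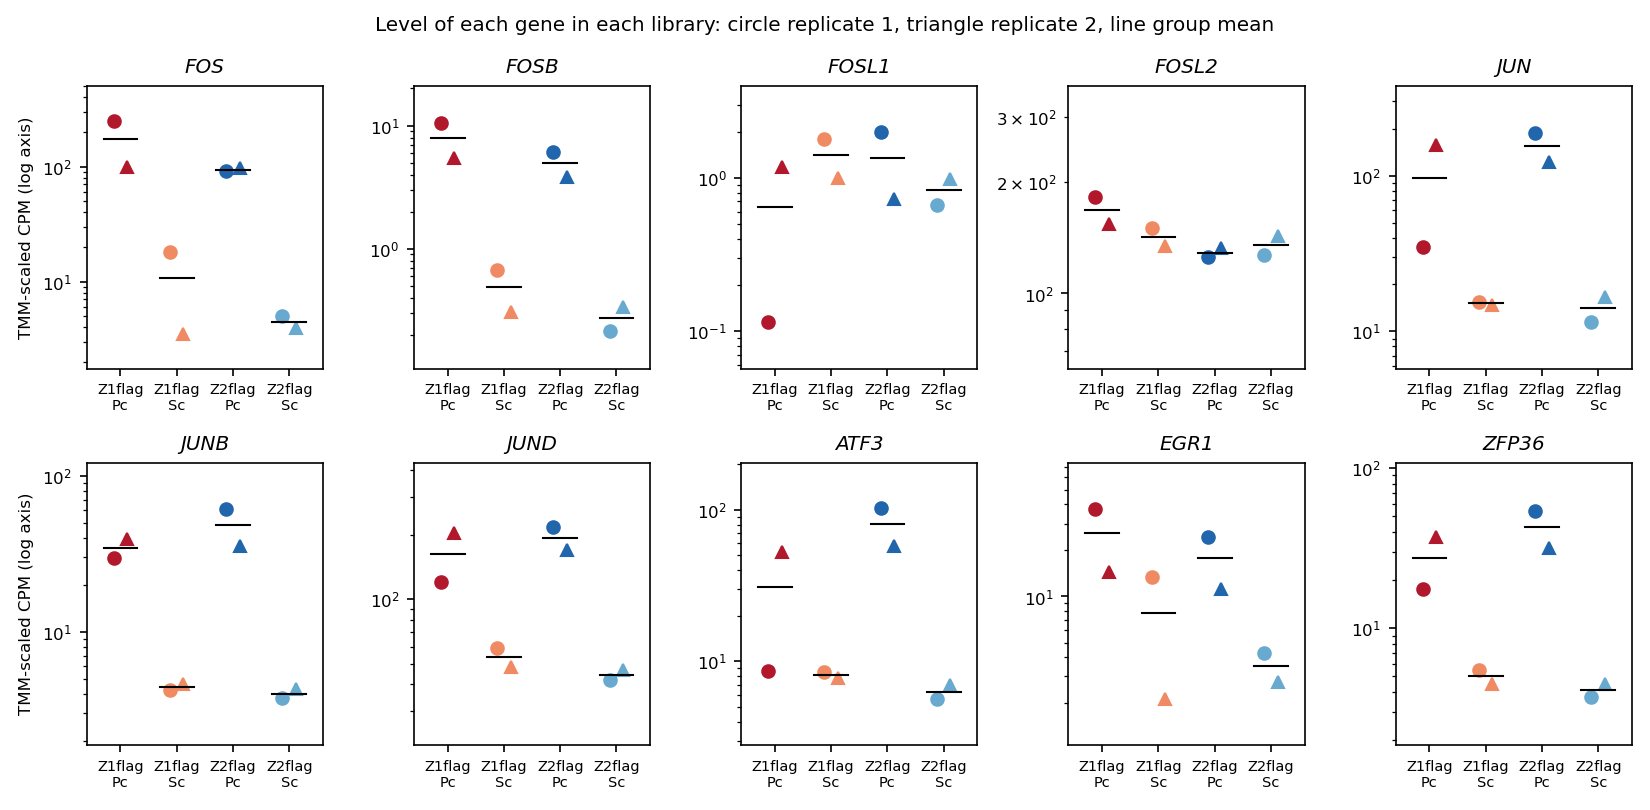
TMM-scaled CPM of the 10 genes in each of the 8 libraries, each panel with its own log axis. Circles are replicate 1, triangles replicate 2 and lines the group means. Postconfluent (Pc) and subconfluent (Sc) libraries did not overlap for FOS, FOSB, JUN, JUNB, JUND, ATF3 and ZFP36, and overlapped for FOSL1, FOSL2 and EGR1. The share of all genes tested that likewise did not overlap is not given here.

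FOS (ENSG00000170345, chr14:75278774-75282230 on GRCh38, plus strand) encodes the founding partner of JUN in AP-1. Its level was 251 and 98.5 CPM in Z1flag Pc cells, against 18.2 and 3.51 CPM in Z1flag Sc cells. In Z2flag cells it was 91.2 and 97.6 CPM in Pc libraries, against 4.99 and 3.97 CPM in Sc libraries. Both states were apart in every library, the lowest Pc library standing 5.02 times above the highest Sc library, while replicate 1 of Z1flag was the highest library of its state in both states. The log2 change was 4.21 ± 0.48 (SE, adjusted p = 7.17e-05), an 18.5-fold difference, with 4.02 ± 0.67 in Z1flag (adjusted p = 0.00147) and 4.39 ± 0.68 in Z2flag (adjusted p = 0.00122). Without Z1flag Sc replicate 1 the change over both lines was 4.99 and that in Z1flag 5.61. Within Z1flag it was 3.22 without Pc replicate 1 and 3.26 without Sc replicate 2, all past the threshold.

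FOSB (ENSG00000125740, chr19:45467995-45475179, plus strand) encodes a FOS paralog that also dimerises with JUN proteins. It stood at 10.5 and 5.46 CPM in Z1flag Pc cells, against 0.676 and 0.305 CPM in Z1flag Sc cells. In Z2flag cells the values were 6.06 and 3.85 CPM in Pc libraries, against 0.214 and 0.338 CPM in Sc libraries. Every Pc library was above every Sc library, although the Sc values rest on 44 counts in all 4 libraries. The gene rose by 4.10 ± 0.37 (SE, adjusted p = 2.38e-05), a change about as large as that of FOS from a far lower level, with 4.04 ± 0.52 in Z1flag (adjusted p = 0.00048) and 4.16 ± 0.53 in Z2flag (adjusted p = 0.000548). Without Z1flag Sc replicate 1 the Z1flag change was 4.66. FOSB lies inside the span of ERCC1, a DNA repair gene on the opposite strand, with 0 bases of exon shared. ERCC1 was at 23.3 ± 3.13 CPM in Pc cells and 16.9 ± 2.10 CPM in Sc cells (SD, n = 4 each), a log2 change of 0.46 ± 0.17 (SE, edgeR adjusted p = 0.035). The kit marks strand, but no source used here names the strand setting of the counting.

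FOSL2 (ENSG00000075426, chr2:28392448-28417312, plus strand), also called FRA-2, is a FOS relative that was expressed in both states. It had 182 and 154 CPM in Z1flag Pc cells, against 151 and 134 CPM in Z1flag Sc cells. Z2flag cells had 125 and 133 CPM in Pc libraries, against 127 and 143 CPM in Sc libraries. Both states overlapped, and the log2 change over both lines was 0.09 ± 0.13 (SE, adjusted p = 0.592). FOSL1 (FRA-1, ENSG00000175592, chr11:65892049-65900573, minus strand), a FOS relative often raised in invasive carcinoma cells, was near the limit of detection with 203 counts over all 8 libraries. Its level was 0.113 and 1.17 CPM in Z1flag Pc cells, against 1.80 and 0.992 CPM in Z1flag Sc cells. It was 1.98 and 0.722 CPM in Z2flag Pc cells, against 0.665 and 0.985 CPM in Z2flag Sc cells. No direction was common to the libraries, and the change over both lines was -0.23 ± 0.56 (SE, adjusted p = 0.746). In Z1flag cells it was -1.18 ± 0.82 (adjusted p = 0.272), and without Pc replicate 2 it was -3.57 (adjusted p = 0.0116). Without both replicate 1 libraries of Z1flag, an alternative chosen after seeing the data, it was 0.27.

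JUN (ENSG00000177606, chr1:58780788-58784327, minus strand) encodes c-Jun, the AP-1 subunit activated by JNK phosphorylation. It had 35.1 and 158 CPM in Z1flag Pc cells, against 15.5 and 14.7 CPM in Z1flag Sc cells. In Z2flag cells it had 188 and 123 CPM in Pc libraries, against 11.5 and 16.7 CPM in Sc libraries. Sc libraries lay close together and Pc libraries spread over 5.37-fold, with Z1flag Pc replicate 1 lowest but still 2.10 times above the highest Sc library. JUN rose by 3.07 ± 0.40 (SE, adjusted p = 0.000163) over both lines, by 2.67 ± 0.56 in Z1flag (adjusted p = 0.00469) and by 3.46 ± 0.58 in Z2flag (adjusted p = 0.00169). The Z1flag change was 3.42 without Pc replicate 1 and 1.21 without Pc replicate 2, both past the threshold. Without Pc replicate 2 of Z1flag the change over both lines was 2.38.

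JUNB (ENSG00000171223, chr19:12791496-12793315, plus strand), a JUN protein with weaker activation of many AP-1 sites than c-Jun, stood at 29.6 and 39.5 CPM in Z1flag Pc cells, against 4.24 and 4.62 CPM in Z1flag Sc cells. It stood at 60.9 and 35.6 CPM in Z2flag Pc cells, against 3.75 and 4.28 CPM in Z2flag Sc cells. The lowest Pc library was 6.41 times above the highest Sc library, the widest such gap of the 10 genes. JUNB rose by 3.27 ± 0.21 (SE, adjusted p = 5.86e-06), the smallest adjusted p of the 10, with 2.96 ± 0.30 in Z1flag (adjusted p = 0.000211) and 3.59 ± 0.30 in Z2flag (adjusted p = 0.000112). HOOK2, a gene for a microtubule-linked adaptor on the opposite strand, spans JUNB and shares 259 bases (14.2%) of its exons. HOOK2 was at 38.1 ± 1.5 CPM in Pc cells and 40.6 ± 5.81 CPM in Sc cells (SD, n = 4 each), a log2 difference of -0.08 ± 0.13 (SE, edgeR adjusted p = 0.611).

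JUND (ENSG00000130522, chr19:18279760-18281622, minus strand), the JUN protein that is expressed widely in resting cells, had 120.0 and 203 CPM in Z1flag Pc cells, against 59.0 and 48.3 CPM in Z1flag Sc cells. In Z2flag cells it had 217 and 170 CPM in Pc libraries, against 41.8 and 46.9 CPM in Sc libraries. All Pc libraries were above all Sc libraries, and the lowest was 2.03 times above the highest Sc library. The change of 1.86 ± 0.19 (SE, adjusted p = 4.21e-05) was the smallest of the 8 that passed, with 1.59 ± 0.27 in Z1flag (adjusted p = 0.00157) and 2.13 ± 0.27 in Z2flag (adjusted p = 0.000537).

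ATF3 (ENSG00000162772, chr1:212565334-212620777, plus strand), a stress-induced factor that can pair with JUN proteins, differed most between postconfluent libraries of Z1flag cells after FOSL1. It had 8.70 and 53.0 CPM in Z1flag Pc cells, against 8.52 and 7.75 CPM in Z1flag Sc cells. It had 103 and 57.7 CPM in Z2flag Pc cells, against 5.61 and 7.03 CPM in Z2flag Sc cells. Z1flag Pc replicate 1 was only 1.02 times above the highest Sc library, whereas the other Pc libraries were far above all Sc libraries. Over both lines ATF3 rose by 2.79 ± 0.46 (SE, adjusted p = 0.00064), and in Z2flag by 3.67 ± 0.67 (adjusted p = 0.00268). The Z1flag change was 1.92 ± 0.64 (adjusted p = 0.0355), 2.74 without Pc replicate 1 (adjusted p = 0.0003) and 0.09 without Pc replicate 2 (adjusted p = 0.845). It missed the threshold without any library other than Pc replicate 1, with DESeq2 (adjusted p = 0.0714), with limma voom (0.163) and with only the 4 Z1flag libraries (0.0603). Without Pc replicate 2 of Z1flag the change over both lines was 1.92, and without either Z2flag Sc library the Z2flag change lost its call (adjusted p = 0.0598 without replicate 1 and 0.0524 without replicate 2).

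EGR1 (ENSG00000120738, chr5:138465490-138469315, plus strand), a growth factor-induced activator, had 37.6 and 14.5 CPM in Z1flag Pc cells, against 13.4 and 2.14 CPM in Z1flag Sc cells. It had 24.5 and 11.2 CPM in Z2flag Pc cells, against 4.25 and 2.76 CPM in Z2flag Sc cells. Within each line both Pc libraries were above both Sc libraries, but Z1flag Sc replicate 1 stood above Z2flag Pc replicate 2. The change was 2.05 ± 0.52 (SE, adjusted p = 0.00725) over both lines, 1.75 ± 0.73 in Z1flag (adjusted p = 0.0777) and 2.34 ± 0.75 in Z2flag (adjusted p = 0.0321). The call over both lines was lost without Z1flag Pc replicate 1 (1.69, adjusted p = 0.0533) and without Z2flag Sc replicate 2 (1.90, adjusted p = 0.0634), and the change was 2.95 without Z1flag Sc replicate 1. The Z1flag change was 0.93 without Pc replicate 1 (adjusted p = 0.462) and 0.95 without Sc replicate 2 (adjusted p = 0.286), and 3.58 without Sc replicate 1 (adjusted p = 0.0134). It also passed with limma voom (2.20, adjusted p = 0.0361) and without both replicate 1 libraries of Z1flag (2.79, adjusted p = 0.0235). In Z2flag it missed the threshold without Pc replicate 1 (1.75, adjusted p = 0.189), Sc replicate 1 (2.67, adjusted p = 0.151), Sc replicate 2 (2.05, adjusted p = 0.247) or Z1flag Pc replicate 2 (2.43, adjusted p = 0.0672).

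ZFP36 (ENSG00000128016, chr19:39406813-39409412, plus strand) had 17.5 and 37.2 CPM in Z1flag Pc cells, against 5.50 and 4.50 CPM in Z1flag Sc cells. It had 54.2 and 31.9 CPM in Z2flag Pc cells, against 3.73 and 4.47 CPM in Z2flag Sc cells. The states did not overlap, and the lowest Pc library was 3.19 times above the highest Sc library. ZFP36 rose by 2.92 ± 0.28 (SE, adjusted p = 2.81e-05), with 2.45 ± 0.39 in Z1flag (adjusted p = 0.00117) and 3.39 ± 0.40 in Z2flag (adjusted p = 0.000364). The Z1flag change was 1.80 without Pc replicate 2.

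**Figure D2:**
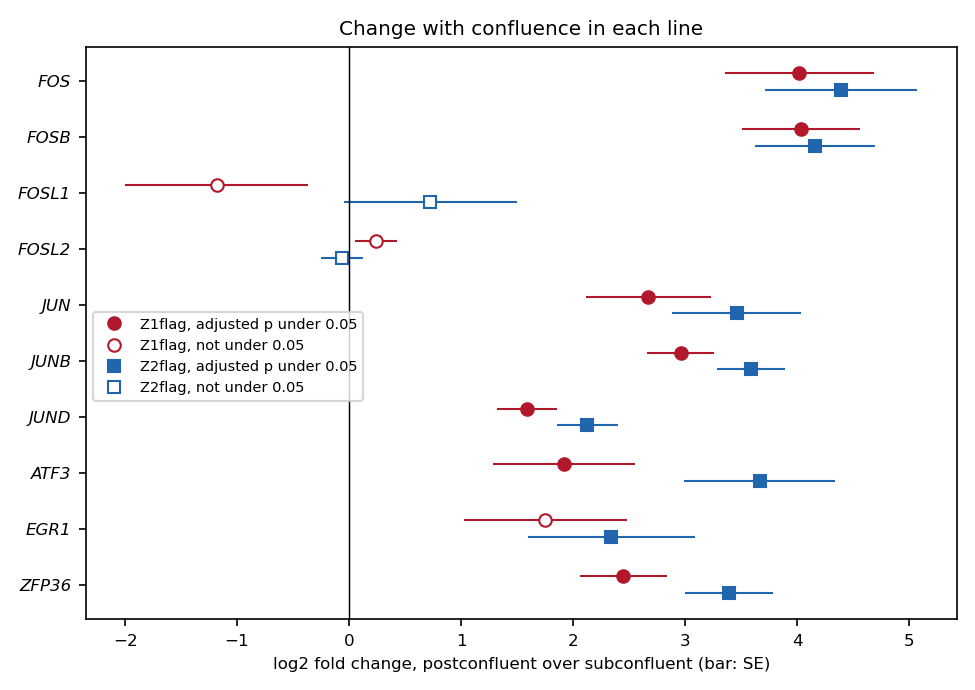
Log2 fold change with its standard error for each gene, postconfluent over subconfluent, in Z1flag cells (circles) and Z2flag cells (squares). Filled symbols passed an adjusted p of 0.05. EGR1 passed in Z2flag cells and not in Z1flag cells, and FOSL1 and FOSL2 in neither.

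With no filter on low counts, FOS, JUN and ATF3 lost their calls within Z1flag cells, FOS, JUN, ATF3 and EGR1 within Z2flag cells, and ATF3 and EGR1 over both lines, with log2 changes close to those above. In that setting 11.9% of all genes were called higher within Z1flag, 10.1% within Z2flag and 15.9% over both lines, of 35174 tested.

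The per-length levels, in CPM per kb of GENCODE exon, show what share each member had of its family. FOS made up 56.7% to 73.9% of the summed FOS family in Pc libraries, against 5.32% to 20.2% in Sc libraries. FOSL2 made up 24.2% to 40.3% in Pc libraries, against 75.9% to 91.8% in Sc libraries. Per length, the leading FOS family gene thus differed between the states, although no change of FOSL2 itself was called. FOSB reached 1.39% to 2.28% in Pc libraries, against 0.196% to 0.438% in Sc libraries. FOSL1 made up 0.0572% to 2.20% in Pc libraries, against 1.80% to 3.44% in Sc libraries. The summed FOS family level was 47.8 to 105 CPM per kb in Pc libraries, against 19.6 to 27.8 CPM per kb in Sc libraries. In the JUN family JUND led in both states, with 57.4% to 71.1% in Pc libraries, against 78.1% to 82.5% in Sc libraries. JUNB held 12.4% to 18.0% in Pc libraries, against 6.06% to 7.78% in Sc libraries. JUN held 10.9% to 26.2% in Pc libraries, against 11.4% to 14.6% in Sc libraries. The summed JUN family level was 90.6 to 203 CPM per kb in Pc libraries, against 27.7 to 38.4 CPM per kb in Sc libraries. Neither summed level overlapped between the states. The lead of FOS in Pc libraries depends on dividing by exon length, 3.24 kb for FOS and 7.16 kb for FOSL2. Undivided, FOS was above FOSL2 only in Z1flag Pc replicate 1 (251 and 182 CPM). In the other Pc libraries FOS was at 91.2 to 98.5 CPM and FOSL2 at 125 to 154 CPM. The family shares are descriptions and were not tested.

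**Figure D3:**
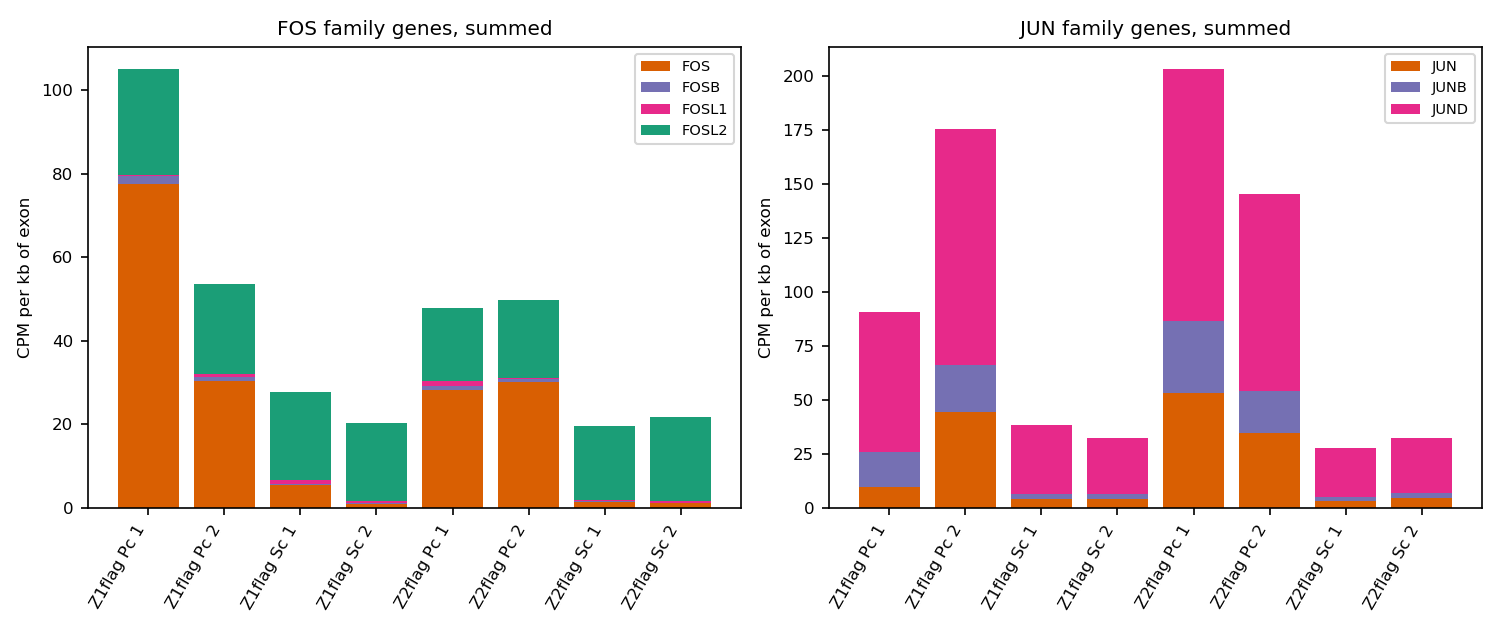
Stacked levels of the FOS family (left) and JUN family (right) in CPM per kb of exon, for each library. FOS is the largest part of the FOS family bar in the 4 Pc libraries and FOSL2 in the 4 Sc libraries, while JUND is the largest part of every JUN family bar.

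Ordered by mean level per length, Z1flag Pc cells had JUND (86.8 CPM per kb), FOS (54.0), JUN (27.3), FOSL2 (23.5), JUNB (19.0), ZFP36 (13.6), EGR1 (8.30), ATF3 (7.64), FOSB (1.43) and FOSL1 (0.341). Z1flag Sc cells had JUND (28.8 CPM per kb), FOSL2 (19.9), JUN (4.27), FOS (3.35), ZFP36 (2.49), EGR1 (2.48), JUNB (2.43), ATF3 (2.01), FOSL1 (0.741) and FOSB (0.0884). Z2flag Pc cells had JUND (104 CPM per kb), JUN (43.9), FOS (29.2), JUNB (26.5), ZFP36 (21.4), ATF3 (19.9), FOSL2 (18.0), EGR1 (5.68), FOSB (0.893) and FOSL1 (0.717). Z2flag Sc cells had JUND (23.8 CPM per kb), FOSL2 (18.9), JUN (3.99), JUNB (2.21), ZFP36 (2.04), ATF3 (1.56), FOS (1.38), EGR1 (1.12), FOSL1 (0.437) and FOSB (0.0497). With 2 libraries a group, most neighbours in the middle of these orders overlapped, among them FOS and JUN in Z1flag Pc cells and ZFP36, EGR1 and JUNB in Z1flag Sc cells. JUND and FOSL2 were the highest pair in every Sc library.

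The change with confluence was not shown to differ between the lines for any of the 10 genes. The difference of changes (Z1flag minus Z2flag) ran from -1.91 for FOSL1 to 0.31 for FOSL2, with -1.75 ± 0.88 for ATF3 (SE, edgeR adjusted p = 0.799). No gene of all those tested passed (0%), and none with DESeq2 or limma voom. With edgeR, 902 genes (4.95% of those tested) but no member had an unadjusted p under 0.05. Without Z1flag Pc replicate 2, ATF3 (-3.66, edgeR adjusted p = 0.0341) and JUN (-2.34, edgeR adjusted p = 0.0414) passed, as did 0.956% of all genes tested in that setting. Between the lines in Pc cells 0% of genes and no member passed with edgeR, and none with DESeq2 or limma voom. An unadjusted edgeR p under 0.05 was reached by 1308 genes (7.17% of those tested). ATF3 was the member among them, at -1.38 ± 0.61 (Z1flag minus Z2flag, SE, edgeR adjusted p = 0.638). Without Z1flag Pc replicate 2, ATF3, FOSL1, JUN and ZFP36 were lower in Z1flag Pc cells, as were 6.02% of all genes tested in that setting, with 5.32% higher. Between the lines in Sc cells 0% of genes and no member passed with edgeR, and none with DESeq2 or limma voom. There 195 genes (1.07% of those tested) but no member had an unadjusted edgeR p under 0.05. The largest difference there was that of FOS, 1.26 ± 0.63 (Z1flag minus Z2flag, SE, edgeR adjusted p = 1), where Z1flag Sc replicate 1 was the high library.

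Among the 4 Pc libraries the 10 genes fell into different orders. Z1flag Pc replicate 1 was the highest Pc library for FOS, FOSB, EGR1 and FOSL2 and the lowest for JUN, JUNB, JUND, ATF3, ZFP36 and FOSL1. Z2flag Pc replicate 1 was the highest for JUN, JUNB, JUND, ATF3, ZFP36 and FOSL1. Replicate 1 minus replicate 2 of Z1flag Pc cells was 1.35 for FOS, 0.93 for FOSB and 1.37 for EGR1 on the log2 scale. The same difference was -2.17 for JUN, -2.60 for ATF3, -1.08 for ZFP36, -0.76 for JUND and -0.42 for JUNB. In Z2flag Pc cells, replicate 1 minus replicate 2 was 0.61 for JUN, 0.83 for ATF3, 1.12 for EGR1 and -0.10 for FOS. Heat shock chaperone genes, 12 in all, summed to 2658 CPM in Z1flag Pc replicate 1 and 7197 CPM in Z1flag Pc replicate 2, against 6789 to 8249 CPM in Sc libraries of both lines. They summed to 11243 CPM in Z2flag Pc replicate 1 and 7566 CPM in Z2flag Pc replicate 2. The library with the lowest chaperone sum was thus also the lowest Pc library for JUN, JUNB, JUND, ATF3, ZFP36 and FOSL1. For the same genes, the library with the highest sum was the highest. For FOS, FOSB, EGR1 and FOSL2 the library with the lowest sum was the highest. Largest in the sum were HSPA8, HSPD1 and HSP90AA1 (means of 2904, 1953 and 1199 CPM), none called over both lines. HSPA6 was highest in Z2flag Pc replicate 2 (30.9 CPM, with 29.2 in replicate 1). The part of the chaperones in the changes above was not tested. Without both replicate 1 libraries of Z1flag, which also had the most reads in no feature, 8 of the 10 genes were called higher in each line and over both. In that setting 13% of all genes were called higher in Z1flag, 23.7% in Z2flag and 26.9% over both.

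**Figure D4:**
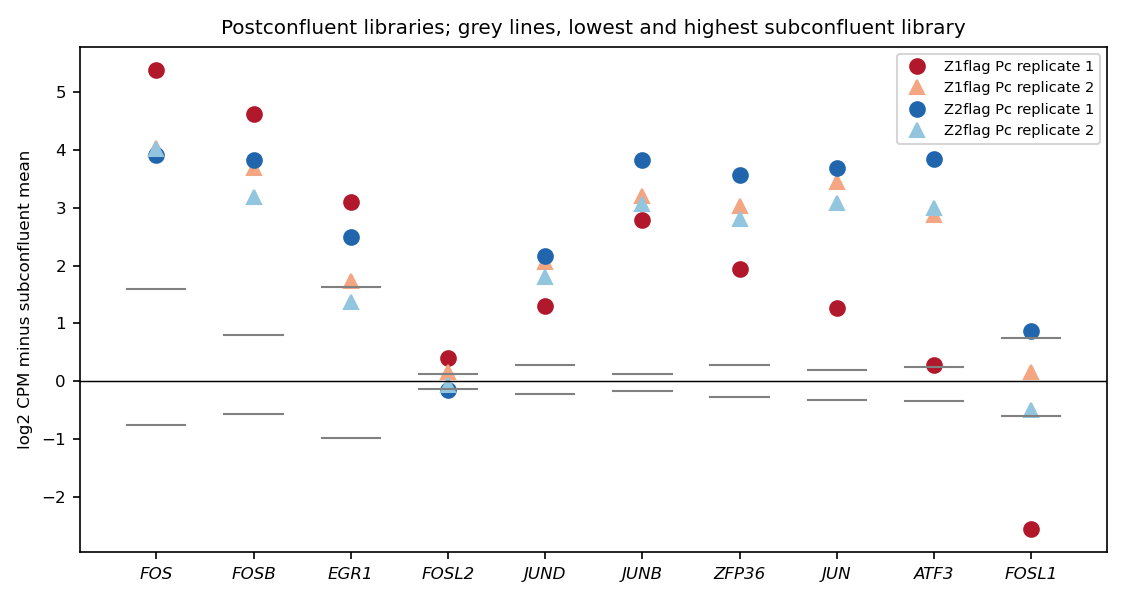
Log2 CPM of each postconfluent library minus the mean of the 4 subconfluent libraries, with grey lines at the lowest and highest subconfluent library. Z1flag Pc replicate 1 (dark red) is the highest for FOS (5.38), FOSB, EGR1 and FOSL2, and the lowest for JUND, JUNB, ZFP36, JUN, ATF3 (0.28) and FOSL1.

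Genes related to these 10 were read from 8 lists, drawn up with earlier results of these data known. The genes are given by counts over both lines, beside the 27.8% and 27.5% of all genes called higher and lower. Shares of all genes within each line were 21.3% higher and 19.1% lower in Z1flag, and 18.3% and 19.3% in Z2flag. The counts are descriptions, and neither their departure from these shares nor their difference between the lines was tested. Of 12 other AP-1 and partner basic leucine zipper genes tested, 7 were higher and 0 lower in Pc cells (median log2 change 0.83). MAFF, a small MAF protein, was at 51.9 ± 30.8 CPM in Pc cells and 6.62 ± 1.28 CPM in Sc cells (SD, n = 4 each), a log2 change of 2.89 (edgeR adjusted p = 0.000156). DDIT3, the CHOP factor of the endoplasmic reticulum stress response, rose by 1.96, and MAF rose by 2.42. In Z1flag cells 4 of this list were higher and 0 lower (median 0.76), against 6 and 0 in Z2flag cells (median 0.86). Direct AP-1 partners ATF2 (-0.21, adjusted p = 0.274) and JDP2 (0.36, adjusted p = 0.109), named after their values were seen, did not pass with edgeR. Of 11 other immediate early transcription factors tested, 9 were higher and 1 lower (median 1.63). NR4A1, a nuclear orphan receptor, was at 53.6 ± 27.5 CPM in Pc cells and 9.95 ± 1.11 CPM in Sc cells (SD, n = 4 each), a log2 change of 2.37 (edgeR adjusted p = 0.000156). IER5 rose by 1.76 and NAB2, a corepressor of EGR1, by 1.40. Taken by line, 5 of these factors were higher and 0 lower in Z1flag (median 1.36), against 7 and 0 in Z2flag (median 1.97). SRF, which binds CArG boxes, fell by 0.46 (edgeR adjusted p = 0.0287), a call lost under 10 alternatives, 7 of them without a single library each.

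Of 20 other immediate early proteins tested, 13 were higher and 1 lower in Pc cells (median log2 change 1.39). CDKN1A, an inhibitor of cyclin-dependent kinases, had 44.1, 42.6, 39.5 and 42.8 CPM in Pc libraries, against 4.12 to 5.18 CPM in Sc libraries, and rose by 3.21 (edgeR adjusted p = 1.71e-06). CCN2, a matricellular growth factor, rose by 2.81 and the antiproliferative gene BTG1 by 1.32. Without Z2flag Pc replicate 1 the counts were 12 higher and 3 lower. PHLDA1 fell by 1.84, with 47.9 ± 12 CPM in Pc cells and 174.7 ± 48.3 CPM in Sc cells (SD, n = 4 each). By line, 9 of these proteins were higher and 2 lower in Z1flag (median 0.98), against 13 and 1 in Z2flag (median 1.94). Among 15 phosphatases and feedback inhibitors of the ERK and p38 pathways, 6 were higher and 4 lower (median 0.39), and 10 were higher and 3 lower with upper-quartile scaling. DUSP1, a nuclear phosphatase of MAP kinases, rose by 2.84 and DUSP5, a nuclear ERK phosphatase, by 2.41. DUSP2 fell by 1.57. This list had 4 higher and 4 lower in Z1flag (median 0.26), against 6 and 1 in Z2flag (median 0.67). Among 17 MAP kinases and inputs to serum response factor tested, 3 were higher and 5 lower (median -0.14), but 5 were higher and 1 lower with upper-quartile scaling (median 0.06), and single libraries moved these counts between 1 and 5 higher and between 1 and 6 lower. Z1flag cells had 1 of these higher and 1 lower (median -0.16), and Z2flag cells 2 and 2 (median -0.14). MAPK3 (ERK1) rose by 1.37, with 57.9 ± 2.22 CPM in Pc cells and 22.4 ± 1.21 CPM in Sc cells (SD, n = 4 each). MAP2K4, a kinase upstream of JNK, fell by 0.67, and MAPK8 (JNK1) rose by 0.54, a call lost without Z2flag Sc replicate 1 (edgeR adjusted p = 0.051).

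Of 17 genes tested from a list of AP-1 targets known from other cells, 8 were higher and 3 lower in Pc cells (median log2 change 1.05), with 5 higher without Z1flag Sc replicate 1, Z2flag Pc replicate 1 or Z2flag Sc replicate 1. PLAUR, the urokinase receptor, rose by 3.15, with 2.95, 3.01, 14.4 and 2.83 CPM in Pc libraries and 0.42 to 0.713 CPM in Sc libraries. HMOX1, heme oxygenase, fell by 1.65. The targets gave unlike counts by line, 4 higher and 3 lower in Z1flag (median 0.24), against 8 and 1 in Z2flag (median 1.67). Z2flag Pc replicate 1 was the highest Pc library for PLAUR, as it was for JUN and ATF3, but the lowest for FOS. Between the Z1flag Pc libraries PLAUR hardly differed, whereas JUN had 35.1 and 158 CPM and ATF3 8.70 and 53.0 CPM. Of 17 ZFP36 relatives and mRNA decay factors, 3 were higher and 6 lower (median -0.14), and 5 were higher and 5 lower with upper-quartile scaling (median 0.05). With the CPM filter 5 were higher and 5 lower, and without Z1flag Pc replicate 1 there were 5 higher and 7 lower. CNOT6L, a deadenylase, rose by 1.29 and CNOT8, a further subunit of the CCR4-NOT complex, by 0.82, while CNOT9 of the same complex fell by 1.00. Decay genes by line were 2 higher and 6 lower in Z1flag (median -0.02), against 4 and 2 in Z2flag (median -0.21). Of 12 heat shock chaperones, 6 were higher and 2 lower (median 0.40), with 5 higher and 5 lower without Z1flag Pc replicate 2 and 5 higher and 1 lower without Z2flag Pc replicate 2. Chaperones by line were 4 higher and 2 lower in Z1flag (median -0.08), against 5 and 0 in Z2flag (median 0.89). HSPA1A rose by 2.47 and HSPA1B by 2.72, but these genes are near-identical. Reads aligned more than once stayed out of the counts, so the levels of both may be too low. HSPA6 was at 0.908, 25.3, 29.2 and 30.9 CPM in Pc libraries, against at most 0.0281 CPM in Sc libraries, and HSPE1 fell by 0.65.

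**Figure D5:**
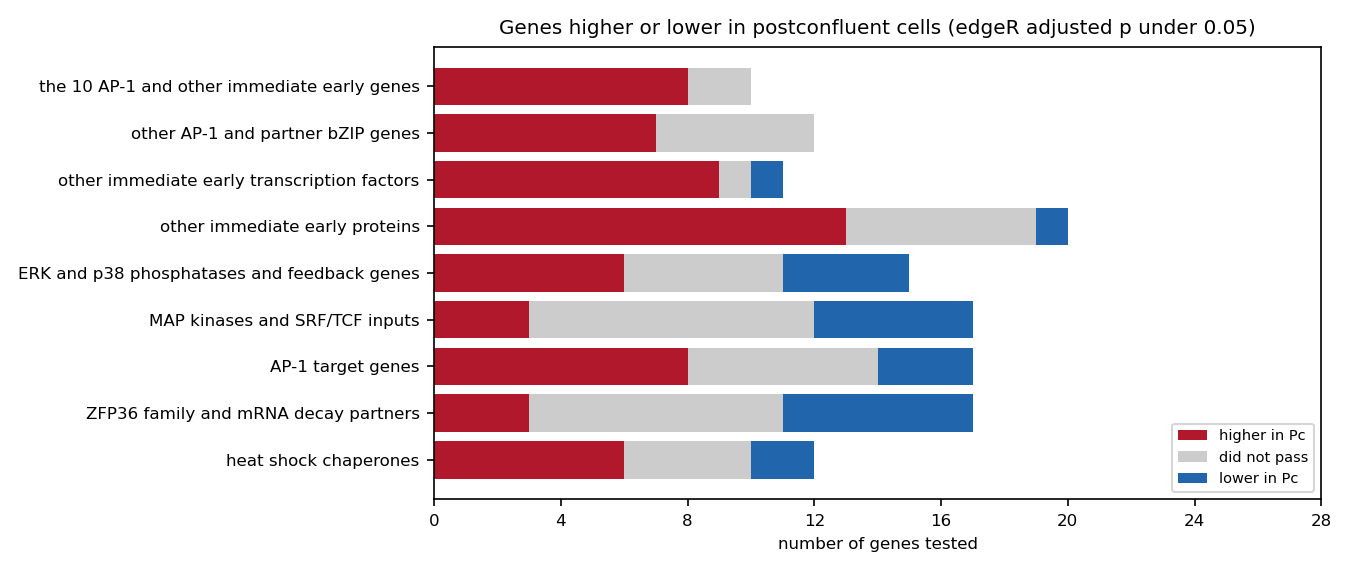
Number of tested genes called higher (red), lower (blue) or not called (grey) in postconfluent cells over both lines, for the 10 genes and the 8 related lists. Genes and lists were chosen with earlier results of these data known. The 3 lists of other AP-1 and immediate early genes hold at most 1 lower gene each, while the MAP kinase and mRNA decay lists hold more lower than higher genes with TMM scaling. Upper-quartile scaling gave 5 higher and 1 lower in the first of these and 5 of each in the second.

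Markers of cell state and of other cell types are given beside the same 27.8% and 27.5% of all genes called higher and lower. Of 6 proliferation markers 4 were lower and 0 higher in Pc cells, with summed levels of 1191 to 1965 CPM in Pc libraries, against 2488 to 2781 CPM in Sc libraries. Of 9 epithelial markers tested 5 were higher and 2 lower, and 3 and 2 without Z1flag Sc replicate 1 or either Z2flag Sc library. Their sum, led by KRT8 and KRT18, was 4708 to 8334 CPM in Pc libraries, against 11927 to 14201 CPM in Sc libraries. Of 3 fibroblast markers tested 2 were lower and 0 higher, with sums of 27.8 to 52.8 CPM in Pc libraries, against 101.6 to 119.7 CPM in Sc libraries, and COL1A2 was at 0 in every library. Of 4 leukocyte markers tested 1 was higher and 0 lower, with sums of 18.6 to 29.6 CPM in Pc libraries, against 9.64 to 23.3 CPM in Sc libraries, and the count was 2 without either Z1flag Pc library and 3 without Z1flag Sc replicate 2. The pan-leukocyte gene PTPRC did not pass the count filter. Both endothelial markers tested were higher, but only 1 of the pair passed without Z1flag Sc replicate 1 or Z2flag Pc replicate 2 and neither without both Z1flag replicate 1 libraries. Sums over the 6 listed were 8.10 to 22.8 CPM in Pc libraries, against 4.64 to 11.3 CPM in Sc libraries, and KDR and CLDN5 were at 0 in every library. The part of these markers in the changes of the 10 genes was not tested.

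Over the 8 libraries, the profiles nearest to those of 5 genes were found by the root mean square difference of centred log2 CPM among 11065 other genes with a mean of at least 5 CPM. The nearest to JUNB were KLF10 (0.148), ELF3 (0.228) and DEPP1 (0.245), where the median over all candidates was 1.74. ZFP36 was nearest to KLF10 (0.166), GEM (0.169) and DUSP1 (0.199), with a median of 1.58. JUND lay nearest to IER5 (0.0901), MKNK2 (0.102) and MEF2D (0.141), with a median of 1.07. FOSB and FOS had more distant neighbours, NEAT1 (0.396), AKR1C1 (0.431) and AKR1C2 (0.52) for FOSB and NEAT1 (0.618), AKR1C1 (0.692) and LINC01348 (0.703) for FOS, with medians of 2.08 and 2.41. AKR1C1 and AKR1C2 are close paralogs, and reads that aligned to both stayed out of the counts. Among the 10 genes themselves, the closest pairs were JUNB and ZFP36 (0.295), JUN and ZFP36 (0.316) and ATF3 and JUN (0.375), while FOS was closest to FOSB (0.526). Each distance takes in both the difference between the states and the spread of libraries within them.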

How the data were processed

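The values analysed are deposited gene counts of 8 RNA-seq libraries, made per the labels from rRNA-depleted RNA with a stranded kit and sequenced from both ends. Tools named in the submitters' processing notes are HTSeq, SAMtools and STAR 2.5.2b, with the build hg38. No source used here names the annotation or the HTSeq settings. The authors' raw counts cover 58302 Ensembl IDs. Read classes without a gene (20.6% to 32.0% in no feature, 5.39% to 7.86% ambiguous, 6.59% to 10.3% aligned more than once) stayed out of library sizes and tests. Gene positions and exon lengths are from GENCODE v29 (GRCh38), symbols from a gene name table.

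The 4 groups follow the labels. The test of the counts was edgeR 4.0.16 under R 4.3.3 (TMM, filterByExpr by group with minimum count 10 and minimum total 15, robust quasi-likelihood F test) with the 4 groups as coefficients, leaving 4 residual degrees of freedom. Benjamini-Hochberg adjustment covered 18240 genes, and the threshold was an adjusted p of 0.05. The 6 contrasts were the confluence change over both lines, within Z1flag and within Z2flag, the difference of these changes, and Z1flag minus Z2flag in each state. The SE is the log2 fold change divided by the square root of F. The log2 CPM values used a prior count of 2. The fit was tested on simulated data with known changes. FOSL1 rests on 203 counts over all libraries and FOSB on 44 in the Sc libraries.

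All 10 genes were named, with up to 3 genes of each related list by smallest adjusted p over both lines and a mean CPM of at least 1, plus the first in the other direction. Some genes that this rule names are not reported here. Nearest profiles were given for the 5 genes with the smallest adjusted p. The genes and lists were chosen with earlier results of these data known. The libraries were not treated as paired. Other settings tried were DESeq2 1.42.0, limma 3.58.1 voom, upper-quartile and RLE scaling, no filter, a filter of 1 CPM in 2 libraries, a replicate block, only the libraries compared, and leaving out each library. Added after seeing the data were a crossed block and leaving out both Z1flag replicate 1 libraries. Figures and summaries used Python 3.11.15.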

Additional observations from a re-analysis of the deposited data

Results flagged for a closer look

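Each of the 10 genes was looked at within the 4 Pc and within the 4 Sc libraries, 20 groups in all, for a library far from the other 3. The limit used, Dixon's 95% critical value for 4 values, flags about 1 in 20 groups by chance when values come from a single normal distribution. Here the values were CPM, not logged, from libraries of both lines, so that rate is only a guide. FOS met it in both states. In Pc cells Z1flag replicate 1 stood at 251 CPM, with 91.2 to 98.5 CPM in the other 3 libraries, and the gap was 0.955 of the range. In Sc cells Z1flag replicate 1 stood at 18.2 CPM, with 3.51 to 4.99 CPM in the others, and the gap was 0.899 of the range. These are the libraries with the highest shares of reads in no feature, 31.4% and 32.0%, and the part of this in the FOS level was not tested. Without both libraries FOS was still called higher in Pc cells, with a log2 change of 4.84 in Z1flag (edgeR adjusted p = 0.00292).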

How the results depend on the processing

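JUNB, JUND, FOSB and ZFP36 kept their direction and their call over both lines and within each line under every alternative run, with log2 changes over both lines of 3.10 to 3.49, 1.68 to 2.14, 3.85 to 4.40 and 2.64 to 3.26. With no filter on low counts, 4 of the 10 genes were called within Z1flag and 4 within Z2flag cells (23.5% and 21.6% of all genes), and 41 genes of all were called for the difference of changes, 221 between lines in Pc cells and 2 between lines in Sc cells. The cause was not tested. Leaving out each library gave 3757 to 8862 calls of all genes within Z1flag and 2894 to 9108 within Z2flag cells, 0 to 2 members and 0 to 190 genes for the difference of changes, and 0 to 4 members and 0 to 2252 genes between lines in Pc cells, the highest of the last 4 without Z1flag Pc replicate 2. The alternatives without 1 library have fewer samples, and a lone library is assumed to vary like the other groups. Without both Z1flag libraries of replicate 1, chosen after seeing the data, 4865 genes (26.1%) were called within Z1flag.

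Deviations of same-numbered libraries from their group means correlated between groups with r of -0.18 to 0.178, so the numbers were not taken as pairs. With a replicate block, 8, 7 and 8 members were called over both lines, in Z1flag and in Z2flag (9954, 7155 and 6627 genes of all). In Z1flag ATF3 missed the threshold (1.76, edgeR adjusted p = 0.0709) and EGR1 passed it (1.96, edgeR adjusted p = 0.00553). No gene was called for the difference of changes or between lines in either state. With replicate numbers crossed between the Pc groups, chosen after seeing the data, 46 genes and 1 member (ATF3) were called between lines in Pc cells.

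Uncalled values changed sign as follows, with ranges over the settings that leave out 1 library. FOSL1 ran from -1.37 to 0.31 over both lines (0.09 without Z2flag Pc replicate 2) and from -0.11 to 1.36 in Z2flag, and without both Z1flag replicate 1 libraries it was 0.53 over both lines and 0.27 in Z1flag. FOSL2 in Z2flag was 0.10 with upper-quartile scaling, 0.049 with the CPM filter and 0.00086 with only the libraries compared, and ran from -0.17 to 0.058. The difference of changes ran from -1.26 to 1.24 for FOS, from -0.73 to 0.52 for FOSB and from -1.50 to 1.26 for EGR1, and without both Z1flag replicate 1 libraries it was 0.40 for FOS and 0.39 for EGR1. FOSL1 rests on 203 counts in all.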
